A study of Mus musculus with 20 samples.

Results

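Among the sequencing runs of a CPEB4 RNA immunoprecipitation study in mouse CD8 T cells, 4 deep runs fell into 2 pairs whose 3′ UTR counts differed widely. Set A holds the runs labelled WT IP D1 batch 3 and KO IP D1 batch 2. Set B holds the runs labelled KO IP D1 batch 3 and WT input RIP8 batch 2. The sets were chosen by their counts in an earlier reading of the same table, so each value of set A against set B is a description and carries no test. They mix the labels: each set has 1 run labelled WT and 1 labelled KO, and 1 run of batch 3 and 1 of batch 2. Values are therefore given for 2 against 2 runs and not for genotypes. The 4 runs are part of 20 runs of 12 libraries, as the sample titles tell them apart. By the titles the library labelled KO IP D1 has 1 run in each set. The labels of these columns may not match the libraries they name, and every WT, KO, input, IP, D1 and RIP8 given below is the label and not a checked identity.

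The cells were CD8 T cells bead-purified from spleen and lymph nodes of C57BL/6 mice, either wild type (WT) or lacking Cpeb4 (KO), and all groups were stimulated for 48 h with antibodies to CD3 and CD28 and with IL-2. RNA bound to CPEB4 was recovered by immunoprecipitation (IP), and input RNA was sequenced beside it. Input RNA was selected for poly(A) tails and IP RNA was not, per the labels' protocols. D1 and RIP8 are names in the sample titles that group libraries, and nothing in the labels says whether they came from separate animals. The p-values given for other runs thus reflect the spread among these samples alone, and that spread may be technical.

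CPEB4 binds elements in 3′ UTRs that control the length of the poly(A) tail and so the translation of an mRNA. A CD8 T cell stimulated through its antigen receptor first turns on immediate early genes, then takes up glucose, makes sterols and divides, and becomes able to kill by granzyme release. Interferon, sensed through a receptor that activates STAT proteins and IRF9, turns on a separate programme of antiviral genes through a promoter sequence called the interferon-stimulated response element.

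In the run totals, 1 UTR row in Lars2, which encodes the mitochondrial leucyl-tRNA synthetase, is left out throughout. It held 1.16 and 2.23% of the counts in the batch 3 and batch 2 runs of set A and 5.40 and 2.32% in those of set B. Without it the totals were 3990722 and 3838099 counts in set A and 2464476 and 4085902 counts in set B. The 5 other runs used here had 192134 to 317395 counts each once this row, with 34.8 to 50.1% of their counts, was removed. These Lars2-rich runs are 3 of D1, all of batch 2 (labelled input from WT, input from KO and IP from WT), and 2 of RIP8 (input from WT, batch 1, and input from KO, batch 2). Their D1 values are always given in that order. By the titles the D1 run labelled IP from WT is a repeat run of a library in set A, and the RIP8 run labelled input from WT is a repeat run of a library in set B. The remaining 11 columns of the table could not be tied to the row names and give no gene values here: of 60 neighbouring rows that share a UTR start, 0 held identical counts in these columns, against 25 of 49 in the first 9 columns. Levels are CPM, counts scaled to 1000000 per run, and log2 values are of CPM + 1.

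The labelled cell type was borne out by its markers. Summed over 7 CD8 T cell markers, among them Cd8a and Cd8b1 of the CD8 coreceptor, the level was 3623 and 5327 CPM in the batch 3 and batch 2 runs of set A and 5242 and 5570 CPM in those of set B. Cd8a alone had 720 and 1116 CPM in set A and 1170 and 1234 CPM in set B. The sums over 15 B cell markers were 83.4 and 161 CPM in set A and 104 and 99.6 CPM in set B. Only 1 of the 15, the defining B cell transcription factor Pax5, had 0 counts in all 4 runs. H2-Ab1 had 29.8 and 50.8 CPM in set A and 73.4 and 69.8 CPM in set B. Cd79b had 22.8 and 33.3 CPM against 14.6 and 15.4 CPM, and Cd74 had 18.5 and 37.3 CPM against 6.09 and 6.12 CPM. Over 23 myeloid markers the sums were 277 and 313 CPM in set A and 154 and 165 CPM in set B. Of these 23, 11 were at 0 counts in all 4 runs, including the neutrophil genes S100a8 and S100a9 and the macrophage gene Adgre1, where 0 counts allow a level of up to 0.209 CPM over the 4 runs together. Bst2, which interferon also induces, had 134 and 156 CPM in set A and 45.9 and 48.7 CPM in set B, and the integrin gene Itgam had 10.3 and 9.90 CPM against 1.22 and 1.47 CPM. Over 12 NK cell markers the sums were 120 and 202 CPM in set A and 87.6 and 107 CPM in set B. Over 10 CD4 T cell markers they were 89.2 and 124 CPM against 62.9 and 72.2 CPM. Stromal markers summed to at most 79.5 CPM and erythroid and platelet markers to at most 2.35 CPM in these 4 runs. The part of other cells in the differences below was not tested.

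The 2 runs of set B were close to each other and those of set A were not. After all 4 runs had been thinned to 2464476 counts, the chi-square per degree of freedom, which is near 1 where only counting error separates runs, was 2.71 within set B and 31.5 within set A. Only 73 of 9711 UTR rows differed by 2-fold or more between the runs of set B, although these are labelled KO IP D1 and WT input RIP8. Within set A 2036 rows did. Between the sets the run labelled KO IP D1 batch 2 stood nearer to set B than the run labelled WT IP D1 batch 3 did. It had a chi-square per degree of freedom of 29.4 and 29.3 to the runs of set B, slightly below its 31.5 to the other run of set A, whereas the run labelled WT IP D1 batch 3 had 80.9 and 80.1. By rank correlation over the 9711 rows, the same run was nearer to its partner in set A (Spearman's rho 0.923) than to set B (0.902 and 0.906). The plot of pairs of runs shows these distances.

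**Figure D1:**
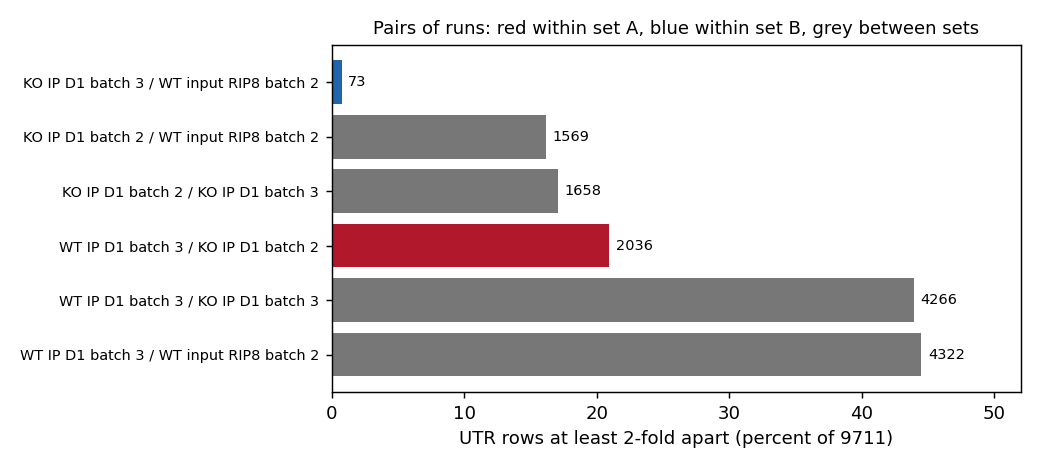
Share of 9711 UTR rows that differed by 2-fold or more on CPM + 1 for each of the 6 pairs of runs, with the number of rows beside each bar. The pair within set B has 73 such rows, and the pair within set A has 2036, more than 2 of the 4 pairs between the sets.

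A row counts as apart where both runs of one set lay above both runs of the other, that is in the same direction in all 4 cross pairs. Of the 9711 rows with a mean of at least 5 CPM over the 4 runs, 2658 (27.4%) were higher in set A and 4275 (44%) were higher in set B, and in the other 2778 rows the sets overlapped. The median log2 difference of set A minus set B over all rows was −0.24. A row is called apart by 2-fold where the lowest run of the higher set was at least 2 times the highest run of the lower set. This held for 383 rows higher in set A (3.94%) and 634 rows higher in set B (6.53%), and these rows are the members described here. The split depends on the scaling: with trimmed mean (TMM) factors the median of all rows moved to 0.02 and 535 and 467 rows were apart by 2-fold, with 3581 and 3458 apart in all 4 cross pairs. Without the run labelled KO IP D1 batch 2, which leaves 1 run against 2, 1020 and 2772 rows were apart by 2-fold. With TMM factors all 383 rows higher in set A stayed so, and 467 of the 634 rows higher in set B. Just inside the 2-fold limit stood Mvb12a (gap 1.0022) and Ddx49 (1.0041) in set A and Gpam and Rap2a (−1.0006 and −1.0007) in set B. Just outside it stood Cyfip1 (0.998) and Creld1 (0.991), and Dip2c (−0.9999) and Pdk1 (−0.999). The gap is the log2 ratio of the nearest runs of the 2 sets, above 0 where set A is higher.

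By labelled genotype the same 4 runs gave fewer rows. The runs labelled WT were both higher in 431 rows (4.44%) and those labelled KO in 803 rows (8.27%). By 2-fold, 0 rows were higher in the runs labelled WT and 1 was higher in those labelled KO, a row without a gene symbol here. Each labelled genotype holds 1 run of each set, so rows that differ between the sets overlap between the genotypes by construction. Cpeb4, the gene deleted in the KO, followed the sets and not the labels. Its UTR row on chromosome 11 had 12.0 CPM (labelled WT IP) and 16.2 CPM (labelled KO IP) in set A, and 47.1 CPM (labelled KO IP) and 34.3 CPM (labelled WT input) in set B. In the Lars2-rich runs it had 125, 110.0 and 123 CPM in D1 and 195 and 126 CPM in RIP8, labelled WT and KO. Since the deleted stretch of Cpeb4 is not described in the labels, this UTR does not check the KO label.

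Interferon-induced genes led the rows higher in set A. Of 61 named genes of this list, 58 passed the 5 CPM filter; 46 of them were higher in both runs of set A, 0 were higher in both runs of set B and 12 overlapped. By 2-fold, 30 of the 58 were higher in set A. Over all rows the shares were 27.4 and 44%, and 3.94 and 6.53% by 2-fold. The median log2 difference of the 58 was 1.58, against −0.24 over all rows, and 1.84 with TMM factors. Rsad2, which encodes the antiviral enzyme viperin, had 259 and 338 CPM in the batch 3 and batch 2 runs of set A and 12.6 and 9.06 CPM in those of set B. Iigp1, an immunity-related GTPase that attacks the vacuoles of parasites, had 408 and 382 CPM in set A and 14.2 and 12.2 CPM in set B. In both genes the runs of a set lay close together and the sets far apart. Ifi44, an antiviral protein, rested on 167 and 200 counts in set A and on 1 and 2 counts in set B, a ratio of pooled counts per total of 102 (95% counting interval 34.8 to 499). Isg15, a ubiquitin-like modifier, had 173 and 86 counts against 1 and 3, a ratio of 54.2 (20.9 to 200). These intervals are exact, conditional on the summed counts, and cover counting error only.

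Some promoters of genes higher in set A carry the core of the interferon-stimulated response element, GAAA, any 2 bases and GAAA, and 30 bases around it are printed to show the match beside the levels. Promoters here are the 250 bases before and 50 after the gene start in RefSeq, build GRCm38.p6, both strands searched. Trim30d and Trim12c are not members of the interferon list, and the promoters of Ifi44, Xaf1 and Slfn2, which are, held no match in this window. Capitals mark the motif, which reads as its reverse complement where it lies on the other strand of the gene.
Rsad2 (chr12:26456553-26456582, minus strand): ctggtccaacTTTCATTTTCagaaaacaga
Trim30d (chr7:104507871-104507900, minus strand): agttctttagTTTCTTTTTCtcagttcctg
Trim12c (chr7:104353359-104353388, minus strand): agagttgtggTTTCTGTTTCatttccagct
Ifi208 (chr1:173673597-173673626, plus strand): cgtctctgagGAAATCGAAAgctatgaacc
Isg15 (chr4:156200877-156200906, minus strand): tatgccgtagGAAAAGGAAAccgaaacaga
Emilin2, higher in set B (chr17:71311561-71311590, minus strand): aatactgatgGAAAGAGAAAcgtccgagca

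The motif lay in 34 of 257 promoters (13.2%) of rows higher in set A by 2-fold and in 9 of 430 (2.09%) of rows higher in set B by 2-fold. It lay in 220 of 6603 promoters (3.33%) of all rows tested and in 943 of 27025 promoters (3.49%) in the RefSeq table. A heat shock element, GAA, any 2 bases, TTC, any 2 bases and GAA on either strand, lay in 2 of the 257 and 1 of the 430, in 24 of the 6603 and in 143 of the 27025. A match is a run of letters, and binding was not measured.

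**Figure D2:**
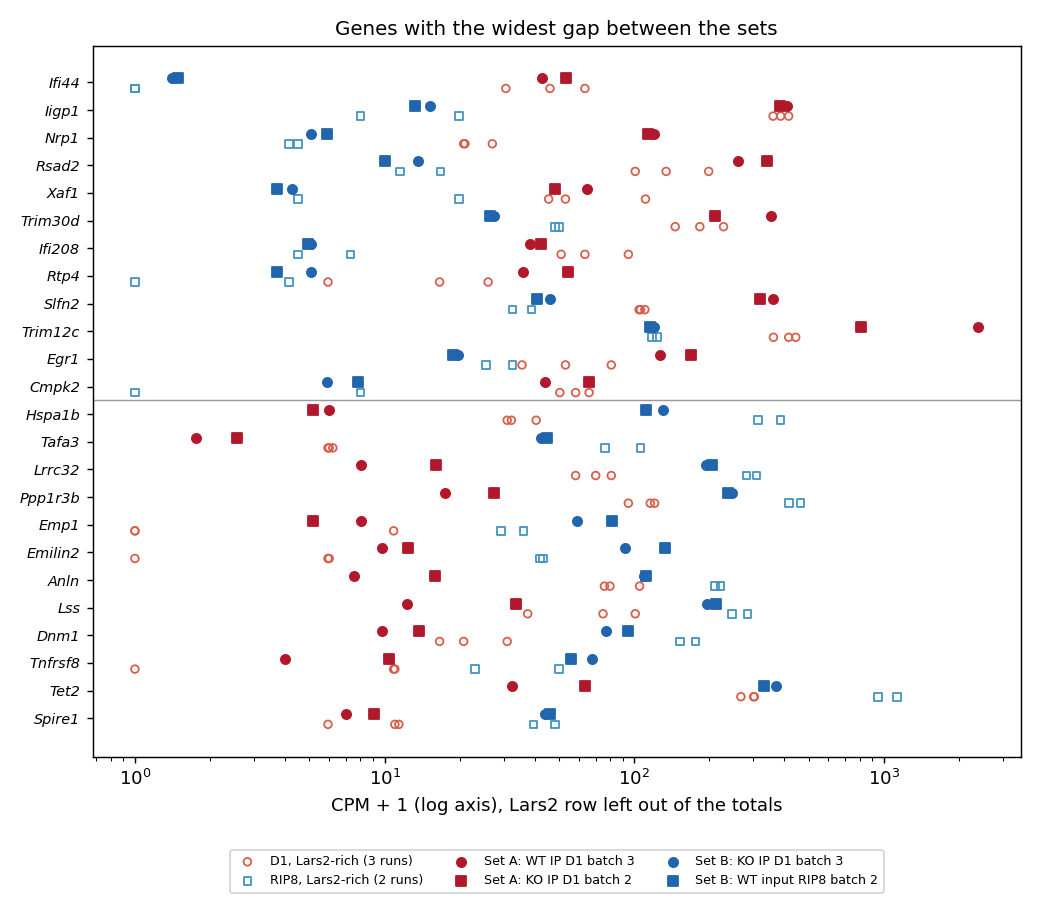
CPM + 1 on a log axis of the 12 genes with the widest gap higher in set A (above the line) and the 12 higher in set B (below it), with a mean of at least 20 CPM. Filled symbols are the 4 deep runs, and open symbols are the 5 Lars2-rich runs, which did not enter the choice; for Hspa1b the set A runs lie at 5.01 and 4.17 CPM and the set B runs at 130 and 110 CPM.

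Of the 12 named genes with the widest gap in set A, 7 belong to the interferon list; the others are Nrp1, Egr1, Cmpk2, Trim30d and Trim12c. Nrp1, a coreceptor for semaphorins, had 119 and 113 CPM in the batch 3 and batch 2 runs of set A and 4.06 and 4.89 CPM in those of set B. Xaf1, a proapoptotic protein, had 63.9 and 47.2 CPM against 3.25 and 2.69 CPM. Cmpk2, a mitochondrial nucleotide kinase encoded beside Rsad2, had 42.8 and 65.1 CPM against 4.87 and 6.85 CPM. The gaps of these 3 genes were 4.27, 3.504 and 2.48 on the log2 scale. Slfn2, which keeps T cells quiescent, had 358 and 317 CPM in set A and 45.0 and 39.6 CPM in set B. Trim12c, of the TRIM family, was less even, with 2390 and 811 CPM in set A and 119 and 115 CPM in set B. Trim30d, another member of that family, had 352 and 209 CPM against 26.4 and 25.5 CPM. Ifi208, of a family of DNA sensors, had 37.3 and 41.4 CPM against 4.06 and 3.92 CPM, and Rtp4 had 34.8 and 53.2 CPM against 4.06 and 2.69 CPM. The TRIM, Ifi200, Oas, Gbp and Slfn families hold near-identical copies. How reads that match several places were counted is not stated in the sources used here, so counts may be shared among relatives.

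The interferon list also differed in the Lars2-rich runs, between D1 and RIP8. Summed over its 61 genes, the level was 15448, 16834 and 16123 CPM in the 3 D1 runs and 6585 and 6267 CPM in the RIP8 runs labelled WT and KO input. All 3 D1 runs lay above both RIP8 runs, as both runs of set A (10886 and 14790 CPM) lay above both of set B (5979 and 5985 CPM). Myeloid markers, among them the interferon-induced Bst2, moved the same way there, with sums of 98.9, 105 and 118 CPM in D1 and 37.8 and 38.5 CPM in RIP8. B cell markers summed to 109, 129.96 and 158 CPM against 66.2 and 77.1 CPM, and NK cell markers to 109, 115 and 104 CPM against 81.9 and 73.6 CPM. Their part in the result was not tested. In edgeR's quasi-likelihood test of D1 against RIP8, 14.8% of 4964 rows were called higher in D1 and 15.2% higher in RIP8 at an adjusted p of 0.05. Of the 39 interferon genes tested, 32 were called higher in D1 and 0 higher in RIP8. Rsad2 had 198, 99.97 and 133 CPM in D1 and 15.8 and 10.5 CPM in RIP8, a log2 difference of 3.35 ± 0.42 (SE) with an edgeR adjusted p of 8.98e-09. Iigp1 had 359, 385 and 415 CPM against 18.9 and 7.01 CPM (4.78 ± 0.32, edgeR adjusted p = 2.75e-17). Both remained called under all 10 alternatives run, among them the test with no filter on low counts. In the RIP8 runs Rsad2, Iigp1, Xaf1, Slfn2 and Ifi208 lay below the filter, so they entered the test through D1 alone. A gene that enters in this way had to differ, and its p-value describes the tested row only. The 32 calls include such genes, and the calls of the lists below may do so too. Xaf1 and Slfn2 were also called higher in D1, by 2.49 and 1.56 on the log2 scale, as was Ly6e, by 1.03, which overlapped between the sets. Ifi208 rested on 12, 10 and 19 counts in D1 and 2 and 1 counts in RIP8, a ratio of 13.9 (95% counting interval 4.42 to 69.9). Tap1, a subunit of the peptide transporter for MHC class I, did not pass (0.41 ± 0.17 SE, edgeR adjusted p = 0.068). Ifi44 had 62.5, 45.0 and 29.6 CPM in D1 and was at 0 counts in both RIP8 runs.

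Immediate early genes, which respond to receptor signals without new protein synthesis, were higher in set A in 18 of 30 tested members and higher in set B in 6, with 9 and 0 by 2-fold. Over all rows the shares were 27.4 and 44%, and 3.94 and 6.53% by 2-fold. The median was 0.55, and 0.82 with TMM factors. Egr1, a zinc finger transcription factor, had 126 and 168 CPM in set A and 18.7 and 17.9 CPM in set B. Its relative Egr2 had 18.8 and 17.7 CPM against 2.03 and 3.18 CPM. The nuclear receptor Nr4a2 had 85.9 and 75.6 CPM against 16.6 and 17.9 CPM, and Dusp2, a phosphatase that turns off ERK, had 156 and 134 CPM against 33.3 and 37.4 CPM. For each of these genes the runs of a set lay close together and the sets far apart. Of 23 members tested in the Lars2-rich runs, 8 were called higher in D1 and 1 higher in RIP8, beside 14.8 and 15.2% of all rows. Dusp2 was among the 8 (0.94 ± 0.29 SE, edgeR adjusted p = 0.00964) but lost its call with DESeq2 and without either of 2 runs. Egr1 did not pass there (0.93 ± 0.45 SE, edgeR adjusted p = 0.113), and of the alternatives it did so only without the run labelled WT IP D1 batch 2. Klf6 and Mcl1, the list's most abundant members in the 4 runs, overlapped between the sets.

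Genes of naive and homing T cells were higher in set A in 13 of 23 and in set B in 3, with 4 and 0 by 2-fold. Over all rows the shares were 27.4 and 44%, and 3.94 and 6.53% by 2-fold. Klf2, a transcription factor that keeps T cells in circulation, had 575 and 476 CPM in the batch 3 and batch 2 runs of set A and 148 and 170 CPM in those of set B. Dapl1 had 313 and 163 CPM against 37.7 and 28.1 CPM. Actn1, an actin crosslinker, had 618 and 536 CPM against 142 and 143 CPM. Ccr9, a gut-homing chemokine receptor, had 46.1 and 95.6 CPM against 17.9 and 14.9 CPM. In the Lars2-rich runs Ccr9 was higher in D1 (1.38 ± 0.33 SE, edgeR adjusted p = 0.00112, called under all 10 alternatives), and it entered the test through D1 alone. Of 18 members, 7 were called higher in D1 and 1 higher in RIP8, beside 14.8 and 15.2% of all rows. Klf2 did not pass (0.29 ± 0.22 SE, edgeR adjusted p = 0.348).

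Among 12 inhibitory receptors, 7 were higher in set A and 2 in set B, with 4 and 0 by 2-fold. Over all rows the shares were 27.4 and 44%, and 3.94 and 6.53% by 2-fold. Lag3, which binds MHC class II, had 530.5 and 199 CPM in set A and 45.0 and 60.7 CPM in set B. Pdcd1, which encodes PD-1, had 35.6 and 70.9 CPM against 13.8 and 15.7 CPM, and Cd160 had 57.1 and 60.7 CPM against 23.1 and 21.05 CPM. Ctla4, which competes for the ligands of CD28, went the other way with 306 and 771 CPM in set A and 1446 and 1421 CPM in set B. Ctla4 was also lower in D1 than RIP8 in the Lars2-rich runs (−1.02 ± 0.09 SE, edgeR adjusted p = 1.05e-13, called under all 10 alternatives). Lag3 did not pass the filter of that test, and with the 3 D1 runs summed it was not called (edgeR adjusted p = 0.37). Cd160 was higher in D1 (1.69 ± 0.43 SE, edgeR adjusted p = 0.00229) and missed the threshold with DESeq2. It entered the test through D1 alone.

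Of 16 effector genes tested, 11 were higher in set A and 3 in set B, against 27.4 and 44% of all rows. The chemokine genes Ccl4 and Ccl3 were among the first. Ccl4 had 97 and 95 counts in set A and 4 and 3 counts in set B, a ratio of 22.9 (95% counting interval 10.9 to 57.8). Gzmb, the granzyme that cleaves caspases in target cells, had 857 and 2261 CPM in set A and 4318 and 4391 CPM in set B, and Lta, a cytokine gene, had 80.4 and 75.8 CPM against 187 and 171 CPM. Summed over 25 named effector genes, Gzmb among them, the level was 2631 and 4378 CPM in set A and 5630 and 5763 CPM in set B. Of 23 activation and costimulation genes, 5 were higher in set A and 11 in set B, shares near those of all rows (27.4 and 44%). Tfrc, the transferrin receptor of growing cells, had 124 and 190 CPM against 612 and 666 CPM. Il2ra, the alpha chain of the IL-2 receptor, had 546 and 623 CPM against 1354 and 1349 CPM. Cd44, an adhesion receptor of antigen-experienced T cells, was higher in set A, with 418 and 262 CPM against 69.0 and 81.3 CPM. In the Lars2-rich runs 2 of 8 effector genes tested were called higher in D1 and 2 higher in RIP8. Of 21 activation genes, 4 and 7 were, beside 14.8 and 15.2% of all rows. There the calls of Gzmb, Tfrc, Il2ra and Cd44 held under all 10 alternatives. That of Lta, lower in D1 (−1.09 ± 0.37 SE, edgeR adjusted p = 0.0211), was lost under 4 of them. Gzmb was lower in D1 (−1.02 ± 0.16 SE, edgeR adjusted p = 1.88e-06), as were Tfrc (−1.41 ± 0.09 SE, edgeR adjusted p = 1.49e-17) and Il2ra (−0.61 ± 0.10 SE, edgeR adjusted p = 6.94e-06). Cd44 was higher in D1 (1.62 ± 0.33 SE, edgeR adjusted p = 0.000154) and entered the test through D1 alone.

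Of 43 T cell transcription factors, 21 were higher in set A and 13 in set B, beside 27.4 and 44% of all rows. Bcl6, a repressor of effector differentiation, had 23.3 and 35.7 CPM in set A and 3.25 and 2.94 CPM in set B. Zeb2 had 47 and 33 counts against 2 and 2, a ratio of 16.7 (95% counting interval 6.29 to 62.9), while its relative Zeb1 had 13.3 and 22.7 CPM against 79.9 and 75.9 CPM. The 2 related repressors thus lay on opposite sides. In the Lars2-rich runs Zeb2 had 6, 11 and 11 counts in D1 and 1 and 0 counts in RIP8, a ratio of 28.4 (95% counting interval 4.69 to 1160.4), and it entered the test through D1 alone. Zeb1 was lower in D1 (−0.81 ± 0.27 SE, edgeR adjusted p = 0.0175). The call of Zeb1 was lost with DESeq2, without the run labelled KO input D1 and without that labelled KO input RIP8.

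Over all rows 27.4% were higher in set A and 44% in set B, and 3.94% were higher in set A by 2-fold. Ribosomal protein genes were higher in set A in 59 of 72 tested members and in set B in 4, but by 2-fold in only 5, with a median of 0.73. Their sum was 80841 and 44736 CPM in the batch 3 and batch 2 runs of set A and 26745 and 28850 CPM in those of set B. The run labelled WT IP D1 batch 3 stood apart even from its partner. Rpsa had 8226 and 1880 CPM against 654 and 713 CPM, and Rplp1 had 10606 and 3052 CPM against 1209 and 1339 CPM. In the Lars2-rich runs the sum was 3300 to 4387 CPM, and of 27 members tested 5 were called higher in D1 and 1 higher in RIP8, the first a share near that of all rows (14.8%). Pabpc1, which coats poly(A) tails in the cytoplasm, had 8721 and 5413 CPM in set A and 2093 and 1691 CPM in set B. In the Lars2-rich runs it had 297, 160 and 237 CPM in D1 and 939 and 144 CPM in RIP8, so 1 RIP8 run lay above D1 and the other below. Pabpc1 was called lower in D1 there (−1.29 ± 0.31 SE, edgeR adjusted p = 0.00103), opposite to its direction between the sets. That call was lost under 3 of 10 alternatives, and the sign changed in 1. Of 37 genes of polyadenylation, deadenylation and the CPEB family, 13 were higher in set A and 14 in set B, near the shares of all rows (27.4 and 44%). Pabpn1, the nuclear poly(A)-binding protein, had 1162 and 549 CPM against 239 and 261 CPM, and Pan3, a deadenylase subunit, 49.6 and 110 CPM against 346 and 322 CPM. Both were called the same way between D1 and RIP8, Pabpn1 higher in D1 (0.63 on the log2 scale, edgeR adjusted p = 0.000575) and Pan3 lower (−0.95, edgeR adjusted p = 1.45e-07).

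**Figure D3:**
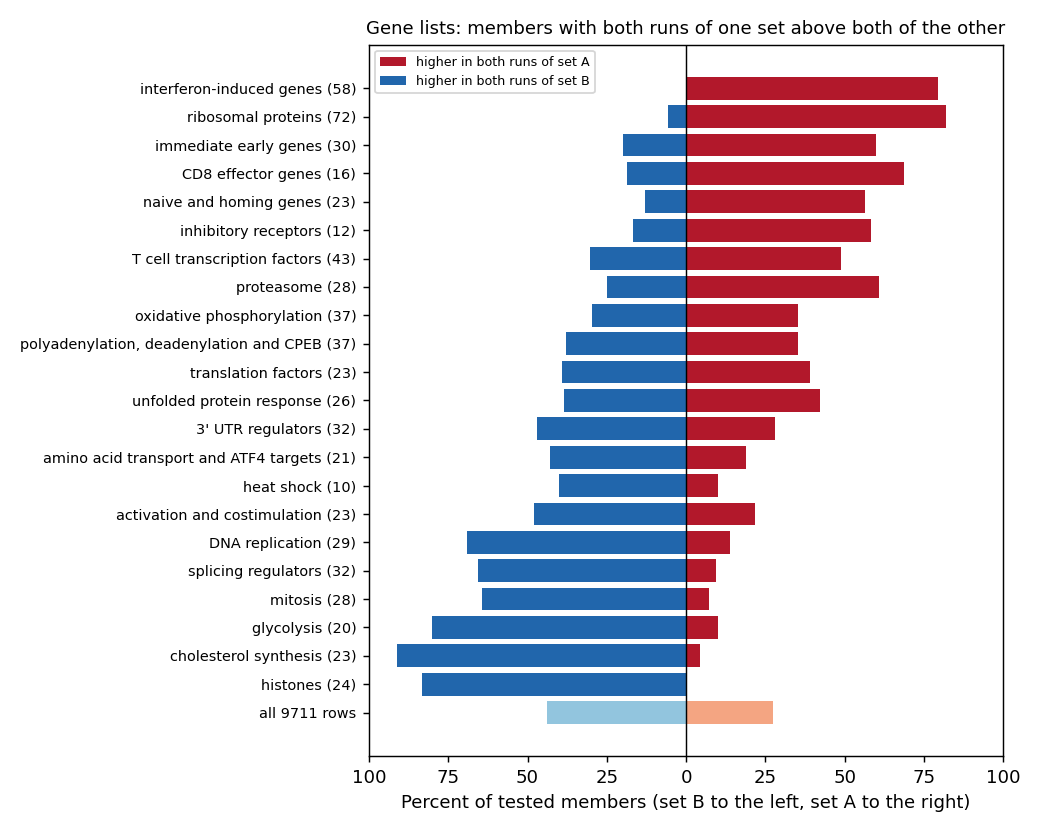
Share of the tested members of each list (number in parentheses) for which both runs of set A lay above both of set B (right) or the reverse (left), with all 9711 rows at the bottom. Interferon-induced genes have 46 of 58 to the right and 0 to the left, and cholesterol synthesis has 21 of 23 to the left.

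On the side of set B, cholesterol and fatty acid synthesis stood out. Over all rows 44% were higher in set B and 27.4% in set A, and 6.53 and 3.94% by 2-fold. Of 23 members tested, 21 were higher in both runs of set B and 1 in both runs of set A, with 10 and 0 by 2-fold. That 1 was Ebp, a sterol isomerase named after its values were seen, with 75.2 and 46.6 CPM against 30.03 and 35.0 CPM. The median was −1.29, and −1.03 with TMM factors, which left 18 members higher in set B. Lss, the cyclase that forms lanosterol, had 11.3 and 32.6 CPM in set A and 194 and 212 CPM in set B. Hmgcs1, which makes the precursor of mevalonate, had 191 and 218 CPM against 609 and 678 CPM. Scd1, a fatty acid desaturase, had 32.1 and 54.5 CPM against 244 and 216 CPM, and Nsdhl, of the late sterol pathway, had 5.51 and 13.03 CPM against 46.7 and 53.1 CPM. The set A run of batch 2 lay between the other set A run and set B for Lss, Scd1, Nsdhl and Hmgcs1. Among the Lars2-rich runs 10 of 14 members were called higher in RIP8 and 0 higher in D1, beside 15.2 and 14.8% of all rows. Lss had 36.4, 99.97 and 74.0 CPM in D1 and 246 and 284 CPM in RIP8 (−1.93 ± 0.25 SE, edgeR adjusted p = 2.40e-08). Hmgcs1 had 141, 150 and 98.7 CPM against 435 and 403 CPM (−1.72 ± 0.19 SE, edgeR adjusted p = 6.83e-10).

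Glycolysis followed the same pattern. Of 20 members, 16 were higher in set B and 2 in set A, with 5 and 0 by 2-fold and a median of −1.02 (−0.76 with TMM factors). Over all rows the shares were 44 and 27.4%, and 6.53 and 3.94% by 2-fold. Slc2a3, a glucose transporter, had 206 and 546 CPM in the batch 3 and batch 2 runs of set A and 1644 and 1630.5 CPM in those of set B. Hk2, the inducible hexokinase, had 42.3 and 124 CPM against 374 and 359 CPM, and Hk1 had 50.9 and 99.5 CPM against 235 and 248 CPM. Among the Lars2-rich runs 15 of 18 members were called higher in RIP8 and 0 higher in D1, beside 15.2 and 14.8% of all rows. Slc2a3 had 973, 920 and 1061 CPM in D1 and 1771 and 1562 CPM in RIP8 (−0.79 ± 0.09 SE, edgeR adjusted p = 5.65e-10). Hk2 differed by −1.19 ± 0.20 (SE, edgeR adjusted p = 9.55e-06). The summed levels by run are shown in the plot of 6 lists.

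**Figure D4:**
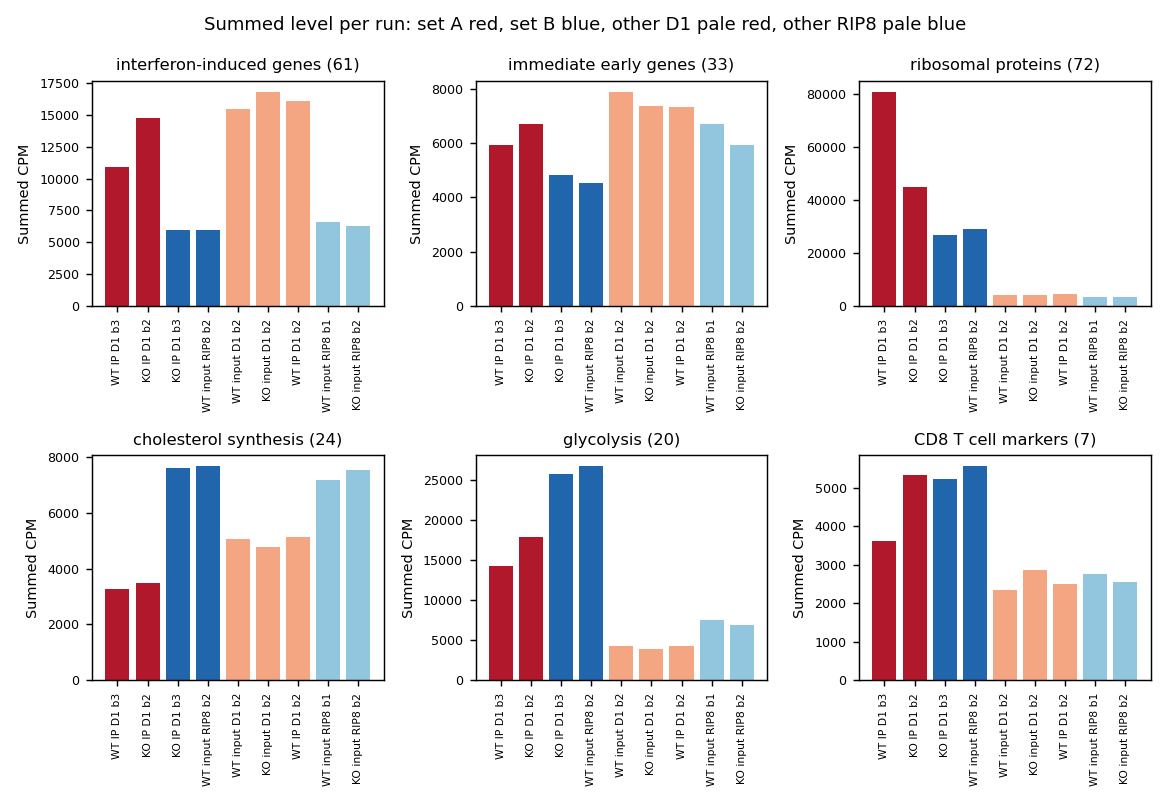
Summed CPM of 6 gene lists in each of the 9 runs, with the number of named genes in each title and bars from 0. Interferon-induced genes sum to 10886 and 14790 CPM in set A and 5979 and 5985 CPM in set B, and to 15448 to 16834 CPM in the other D1 runs and 6585 and 6267 CPM in the other RIP8 runs; cholesterol synthesis runs the other way, and the CD8 T cell markers show no such split.

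The gene with the widest gap in set B was Hspa1b, an inducible HSP70 chaperone of the heat shock response. It had 5.01 and 4.17 CPM in set A and 130 and 110 CPM in set B. In the Lars2-rich runs it had 31.2, 29.99 and 39.5 CPM in D1 and 384 and 312 CPM in RIP8 (−3.39 ± 0.26 SE, edgeR adjusted p = 9.87e-15). Hspa1b lay below the filter in every D1 run and entered the test through RIP8 alone, so it had to differ. Its call held under all 10 alternatives, among them the test with no filter on low counts. The heat shock list as a whole showed no such gap between the sets: of 10 members tested 4 were higher in set B and 1 in set A, beside 44 and 27.4% of all rows. Its median was −0.22, and 0.04 with TMM factors. In the Lars2-rich runs 3 of its 6 tested members, Hspa1b, Hspa9 and Dnajb1, were called higher in RIP8 and 0 in D1, beside 15.2 and 14.8% of all rows. The call of Hspa9 was lost under 2 of the 10 alternatives and that of Dnajb1 under 8. Hspd1, a mitochondrial chaperonin, had 118 and 133 CPM against 300 and 315 CPM, while Hspa8, the constitutive relative of Hspa1b, had 470 and 381 CPM against 334 CPM in both runs of set B. Hspa1b has a near-identical neighbour, so its reads may be shared. Ero1a, an oxidase of the endoplasmic reticulum that hypoxia induces, had 162 and 171 CPM in set A and 751 and 838 CPM in set B, and was lower in D1 than RIP8 in the Lars2-rich runs (−2.15 ± 0.10 SE, edgeR adjusted p = 1.35e-22). The 26 genes of the unfolded protein response as a whole split into 11 higher in set A and 10 in set B, beside 27.4 and 44% of all rows.

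The other named genes on the side of set B have varied roles. Tafa3, a secreted protein, had 3 and 6 counts in set A and 102 and 179 counts in set B, a ratio of 37.3 for set B over set A (95% counting interval 19.4 to 82.5). Lrrc32, which holds latent TGF-β on the cell surface, had 7.02 and 15.1 CPM against 193 and 205 CPM. Ppp1r3b, a glycogen-targeting phosphatase subunit, had 16.5 and 26.3 CPM against 245 and 236 CPM. Tet2, a DNA demethylase, had 31.3 and 62.3 CPM against 368 and 332 CPM. Anln, a scaffold of the cytokinetic ring, had 6.52 and 14.9 CPM against 109 and 111 CPM. Dnm1, a dynamin of vesicle scission, had 8.77 and 12.8 CPM against 75.9 and 93.2 CPM. In all 6 of these genes edgeR called RIP8 higher in the Lars2-rich runs, with Anln the least apart (−1.36 ± 0.23 SE, edgeR adjusted p = 1.06e-05). Tafa3 and Dnm1 lay below the filter in every D1 run and entered the test through RIP8 alone, so they had to differ. Tafa3 had only 1 count in each D1 run there and 24 and 30 counts in RIP8, a ratio of 17.8 for RIP8 over D1 (95% counting interval 5.76 to 88.8). Emp1 had 7.02 and 4.17 CPM in set A and 58.0 and 80.5 CPM in set B. Emilin2, an extracellular matrix protein, had 8.77 and 11.46 CPM against 90.5 and 132 CPM. Tnfrsf8, which encodes CD30, had 3.01 and 9.38 CPM against 66.5 and 54.8 CPM, and Spire1, an actin nucleator, had 6.014 and 8.08 CPM against 43.0 and 45.0 CPM. These last 4 genes did not pass the filter of the edgeR test. With the 3 D1 runs summed to 1 sample, Emilin2 (edgeR adjusted p = 0.00989) and Spire1 (edgeR adjusted p = 0.0281) were called, and Emp1 (edgeR adjusted p = 0.0804) and Tnfrsf8 (edgeR adjusted p = 0.0944) were not.

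Histone genes were higher in set B in 20 of 24 tested members and higher in set A in 0, beside 44 and 27.4% of all rows. By 2-fold 7 were higher in set B, beside 6.53% of all rows, and the median was −1.32. Many rested on low levels: H3c4 had 2.51 and 1.30 CPM in set A and 15.4 and 9.30 CPM in set B. The 2 most abundant histone genes, H2ac24 and H2ac23, overlapped between the sets. So did the summed level of the list, with 988 and 1443 CPM in set A and 2109 and 1352 CPM in set B. Of 7 members tested in the Lars2-rich runs 2 were called higher in RIP8 and 0 in D1, beside 15.2 and 14.8% of all rows. Genes of mitosis were higher in set B in 18 of 28 and in set A in 2, those of DNA replication in 20 of 29 and 4, and splicing regulators in 21 of 32 and 3. Hmmr, a spindle protein, had 19.3 and 42.2 CPM against 137 and 144 CPM, whereas Mki67, the proliferation marker, had 327 and 289 CPM in set A and 292 and 309 CPM in set B. Among the Lars2-rich runs 4 of 16 mitosis genes were called higher in RIP8 and 1 in D1, 2 and 1 of 17 replication genes, and 9 and 3 of 29 splicing regulators, against 15.2 and 14.8% of all rows. Proteasome genes were higher in set A in 17 of 28 and in set B in 7, beside 27.4 and 44% of all rows. By 2-fold, 1 was higher in set A and 0 in set B, beside 3.94 and 6.53% of all rows. No common 2-fold shift was seen in oxidative phosphorylation (13 of 37 higher in set A, 11 in set B). The same held for translation factors (9 and 9 of 23) and 3′ UTR regulators (9 and 15 of 32). It also held for amino acid transport with ATF4 targets (4 and 9 of 21), beside 27.4 and 44% of all rows. The medians of the unfolded protein response, heat shock, 3′ UTR regulator and amino acid lists changed sign with TMM factors.

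Because the sets were chosen on their own counts, the members were read in the Lars2-rich runs, which are other runs but share 1 labelled library with each set. There the 3 D1 runs differed by little more than counting error (chi-square per degree of freedom 1.05 to 1.12), and the RIP8 pair by 1.39, while D1 and RIP8 runs differed by 4.25 to 4.95. With no filter and no test, 320 of the 383 rows higher in set A (83.6%) had a higher mean CPM in D1 than in RIP8, and 57 the reverse. Of the 634 rows higher in set B, 540 (85.2%) had a higher mean in RIP8 and 93 in D1. Over all 9711 rows the shares were 51.1% and 48.4%. Without the 2 runs of shared libraries, which leaves 2 D1 runs and 1 RIP8 run, 82.8% of the 383 were higher in D1 and 83.0% of the 634 in RIP8, against 51.0% and 47.8% of all rows. All 3 D1 runs lay above both RIP8 runs in 198 of the 383 (51.7%) and both RIP8 runs lay above all 3 D1 runs in 391 of the 634 (61.7%), against 20.0% and 20.6% of all rows.

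Of the 383 members of set A, 167 passed the filter of the edgeR test. Of these, 100 (59.9%) were called higher in D1 and 4 (2.40%) higher in RIP8. Of the 634 members of set B, 421 passed. Of these, 5 (1.19%) were called higher in D1 and 223 (53.0%) higher in RIP8. Over all 4877 rows tested of the 9711, the shares were 14.6 and 15.3%. A member that passed only through the runs where it is high had to differ, so these counts describe the tested rows alone. The 3 D1 runs were also summed to 1 sample, a choice made after their agreement was seen. In that fit 216 members of set A and 531 of set B passed the filter, of 6490 among all 9711 rows. It has 1 sample on the D1 side, so its calls are not counted here. With the runs kept separate, DESeq2 called 66 and 0 for set A and 1 and 128 for set B, beside 288 and 300 of all 4964 rows. Of the deep runs, 3 bear the name D1, and the one labelled KO IP D1 batch 3 is in set B with the RIP8 run, so the names do not sort the deep runs.

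**Figure D5:**
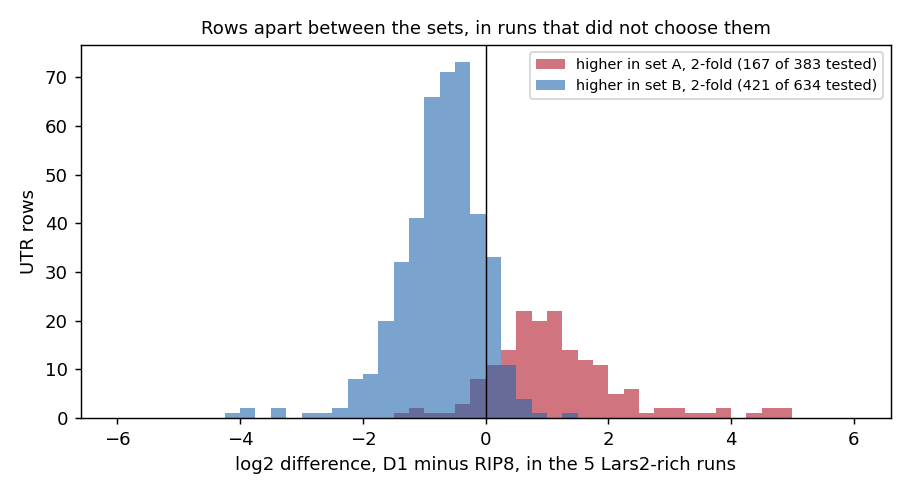
Histogram of the edgeR log2 difference of D1 minus RIP8 in the 5 Lars2-rich runs for the members that could be tested, 167 of 383 higher in set A (red) and 421 of 634 higher in set B (blue). The medians are 1.03 and −0.67, and 151 and 50 rows lie above 0.

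The labelled genotype gave no such calls in the same 5 runs. The edgeR test of WT against KO called 0 of 4964 rows in either direction (0% and 0%), with 17 and 15 rows at an unadjusted p under 0.05, and DESeq2 called 0. These fits have no term for D1 and RIP8, so that difference enters their spread. The common dispersion, edgeR's measure of the spread between runs, was 0.074, against 0.0044 for D1 against RIP8. The 0 calls are thus not comparable with the calls between D1 and RIP8. With the experiment name as a replicate block, 11 rows were called higher in WT and 0 in KO, among them Pabpc1, Ddit4 and Actb, named after their values were seen. In Pabpc1 this rested on the RIP8 run labelled WT input, with 298 counts, against 32 to 57 counts in the other 4 runs.

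The rule asks for 2-fold in each same-batch pair too, so a difference within each sequencing batch was fixed by the choice of members. As a description, in batch 3 the members of set A had a median log2 difference of 1.92 and in batch 2 of 1.54, and the members of set B had −2.25 and −1.33. Each batch holds 1 run of each set, so these are 1 against 1. In 596 of the 634 members of set B the run labelled KO IP D1 batch 2 lay nearer to set B than its partner in set A did, as it did in 269 of the 383 members of set A. The run labelled WT IP D1 batch 3 thus carried the larger part of the difference on the side of set B.

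The members also differed in a feature that the counts did not choose. For genes on the plus strand, where the row name gives the start of the UTR, the distance from that start to the end of the RefSeq gene had a median of 892 bases in 141 rows higher in set A by 2-fold and of 2238.5 bases in 226 rows higher in set B by 2-fold, against 1248 bases in all 3615 such rows. Among all rows apart in all 4 cross pairs the medians were 791 bases (set A) and 1722 bases (set B). Promoter GC content was 59.3% and 63.7% at the median, against 61.7% over all rows tested. Members of set B had median levels of 57.3 to 98.1 CPM across the Lars2-rich runs, near or above those in set B itself (63.9 and 61.9 CPM) and above those in set A (11.3 and 21.9 CPM). Rows that share a UTR start with another member of the same set numbered 8 in set A and 22 in set B. Over all 9711 rows, 227 share a start with another tested row. Such rows may count the same reads, though in the first 9 columns only 25 of 49 neighbouring rows with a shared start held identical counts.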

How the data were processed

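The deposited table holds raw read counts per 3′ UTR for 20 sequencing runs, made with featureCounts against mm10 and with Bowtie 1.2.3, Bowtie2 2.2.2 and R 3.5.1, per the submitters' processing notes; what each tool did, the strand setting and any filter are not given in the sources used for this work. All 20 columns matched a sample title and 0 had none. Rows were named by a match of UTR starts to RefSeq (GRCm38.p6): 3828 starts equal a RefSeq gene start, against 6 after a shift of 1000000 bases, and 16670 of 20586 rows got a symbol, by position and falling order. Only the first 9 columns were in register with the row names.

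From the counts, CPM was computed without the Lars2 row, rows with a mean of at least 5 CPM over the 4 runs were kept, and log2 values used a pseudocount of 1. The 2-fold rule asks for a gap of 1 on the log2 scale. Named genes are the 12 with the widest gap in each set with a mean of at least 20 CPM, Cpeb4, up to 4 members with the widest gap of each list and, where a list showed no common direction, its 2 most abundant. The members, the 31 gene lists and the D1 and RIP8 grouping were chosen with earlier results of these data known.

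The 5 Lars2-rich runs were tested with edgeR 4.0.16 (R 4.3.3), quasi-likelihood, TMM, filterByExpr with a minimum count of 10, 3 residual degrees of freedom and Benjamini-Hochberg adjustment at 0.05 over all rows tested, D1 against RIP8 and WT against KO in separate fits. The SE is the log2 difference divided by the root of the F statistic, so it restates the test. The fits were tested on simulated data. Python 3.11.15, numpy 2.4.6 and pandas 2.3.3 did the rest, and DESeq2 1.42.0 was an alternative, beside other scalings, filters, pseudocounts, thinning and leaving out each run.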

Additional observations from a re-analysis of the deposited data

Results flagged for a closer look

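The run labelled KO input RIP8 batch 1 had a total of 5525450 counts, far above the other 3 runs labelled KO input, which lay between 400795 and 619373 counts. It stood out as the highest of these 4 runs by its distance from the next one relative to their range, a test that also picks out some groups by chance. The run is among the 11 columns out of register with the row names and enters no gene value here.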

How the results depend on the processing

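The counts of rows apart by 2-fold between the sets stayed within 1.5 times under TMM factors, the Lars2 row kept, 3 other filters or depths and both other pseudocounts (274 to 535 rows for set A, 432 to 740 for set B). Leaving out 1 run gave 516 to 1020 and 668 to 2772 rows, the highest without the run labelled KO IP D1 batch 2. In the Lars2-rich runs DESeq2 called 288 rows higher in D1 and 300 higher in RIP8, against edgeR's 734 and 754, and leaving out 1 run gave 474 to 619 and 544 to 671, the lowest without the run labelled WT input RIP8 batch 1. For WT against KO, edgeR called 1 row higher in WT with no filter, Pabpc1, and 11 with the experiment name as a replicate block; no other alternative called any. The cause of these differences was not tested. Each set has 2 runs, and the Lars2-rich runs are shallow: 167 and 421 members passed the edgeR filter there, and 377 and 633 entered the test with no filter. In that test 111 members of set A were called higher in D1 and 259 of set B higher in RIP8. Over all 13188 rows 683 were called higher in D1 and 822 higher in RIP8.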
